A study of Mus musculus with 9 samples.

Results

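The genes described here are the antioxidant and detoxifying genes commonly linked to the transcription factor NRF2, together with the cytosolic and mitochondrial glutathione transferases, in the ear tissue of C57 mice. Members were taken by gene symbol: 24 listed genes of the NRF2 system, of glutathione and thioredoxin metabolism and of peroxide and superoxide removal, and 21 glutathione transferases of the alpha, mu, pi, theta, omega and kappa classes. That makes 45 of the 55401 features in the count file, with 1 processed pseudogene (Gstm2-ps1) left out. Of the 45 members, 44 passed the filter on low counts, and the exception, Gstt4, had at most 16 estimated counts in any library.

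The study has 9 libraries of ear messenger RNA, with 3 libraries per group. The MC903-with-paeonol group received MC903, which is calcipotriol, a vitamin D analogue used on mouse skin to model atopic dermatitis, together with 200 mg/kg of paeonol, a plant phenol known from peony. The MC903 group received MC903, and the control group absolute ethyl alcohol. The labels name the strain only as C57, and they give no age, sex, duration, route of paeonol or vehicle for it, and no group given paeonol alone, so what handling or a vehicle did and what paeonol did cannot be told apart. Whether each library is from its own animal is not stated, and the p-values therefore measure only how far these samples spread, which may be technical.

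NRF2, encoded by Nfe2l2, is held at a low level by KEAP1, an adaptor that passes it to the ubiquitin machinery. When reactive compounds modify KEAP1, NRF2 accumulates, pairs with small MAF proteins and binds antioxidant response elements in the promoters of enzymes that make glutathione, reduce thioredoxin, supply NADPH and conjugate electrophiles. Glutathione transferases join glutathione to reactive lipids, quinones and drugs, and in skin they take part in the handling of such compounds by keratinocytes.

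Levels are given in CPM, estimated counts scaled to a common, TMM-adjusted library size, and comparisons as log2 changes ± standard error from an edgeR quasi-likelihood fit of all 21925 tested genes. Calls are at an adjusted p (Benjamini-Hochberg) under 0.05. Library totals were 54264605 to 57745225 estimated counts, and the first principal component over all genes separated the groups. The markers of the ear's cell types that were looked at were detected except the cartilage gene Matn1, which was at 0 in every library. Summed over 7 keratinocyte markers, the level was 40051 to 43493 CPM in MC903-with-paeonol ears, 24275 to 30315 CPM in MC903 ears and 16896 to 19495 CPM in control ears. The calls of these 7 were mixed, with 3 higher and 2 lower in MC903 against control ears (median log2 change -0.02) and 4 higher and 1 lower in MC903-with-paeonol against MC903 ears (median 0.44). Libraries of whole tissue cannot tell apart fewer cells of a type and less RNA of a gene per cell.

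In MC903 ears against control ears, 18 members were higher, 14 lower and 12 not called of 44 tested. Among all genes tested, 46.8% were called, 23.0% as higher and 23.8% as lower. The members were called more often in both directions (40.9% higher and 31.8% lower). But they are also more highly expressed than most genes, and they were chosen with earlier results of these data known. Their median level was 55.0 CPM, against 11.0 CPM for all genes tested. Among genes with a mean of at least 10 CPM, 50.0% of 32 members were higher and 28.1% lower, against 34.8% and 28.7% of 11221 genes. The libraries of the 2 groups did not overlap for 18 members with MC903 all above and 16 with MC903 all below, where 58.1% of all genes did not overlap (28.3% all above and 29.8% all below). The median log2 change of the members was 0.04, against -0.0155 over all genes. With libraries scaled by their totals alone, which moved the median of all genes to -0.2054, the split was 13 higher and 16 lower.

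In MC903-with-paeonol ears against MC903 ears, 11 members were higher, 12 lower and 21 not called. Of all genes tested, 29.7% were called, 15.3% higher and 14.3% lower, and of the members 25.0% and 27.3%. Among genes with a mean of at least 10 CPM, 28.1% of the 32 members were higher and 31.2% lower, against 22.6% and 21.2% of all genes at that level. Libraries did not overlap for 12 members with MC903-with-paeonol all above and 12 all below, against 43.9% of all genes (21.9% and 22.0%). The median log2 change of the members was 0.07, against 0.0024 over all genes. In MC903-with-paeonol ears against control ears, 17 members were higher and 11 lower. The share of all genes called there was 30.9%, with 16.3% higher and 14.5% lower. Libraries did not overlap for 19 members with MC903-with-paeonol all above and 13 all below, against 46.4% of all genes (22.8% and 23.6%). These comparisons share libraries with each other, so their values are set side by side below and not counted as separate support.

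**Figure D1:**
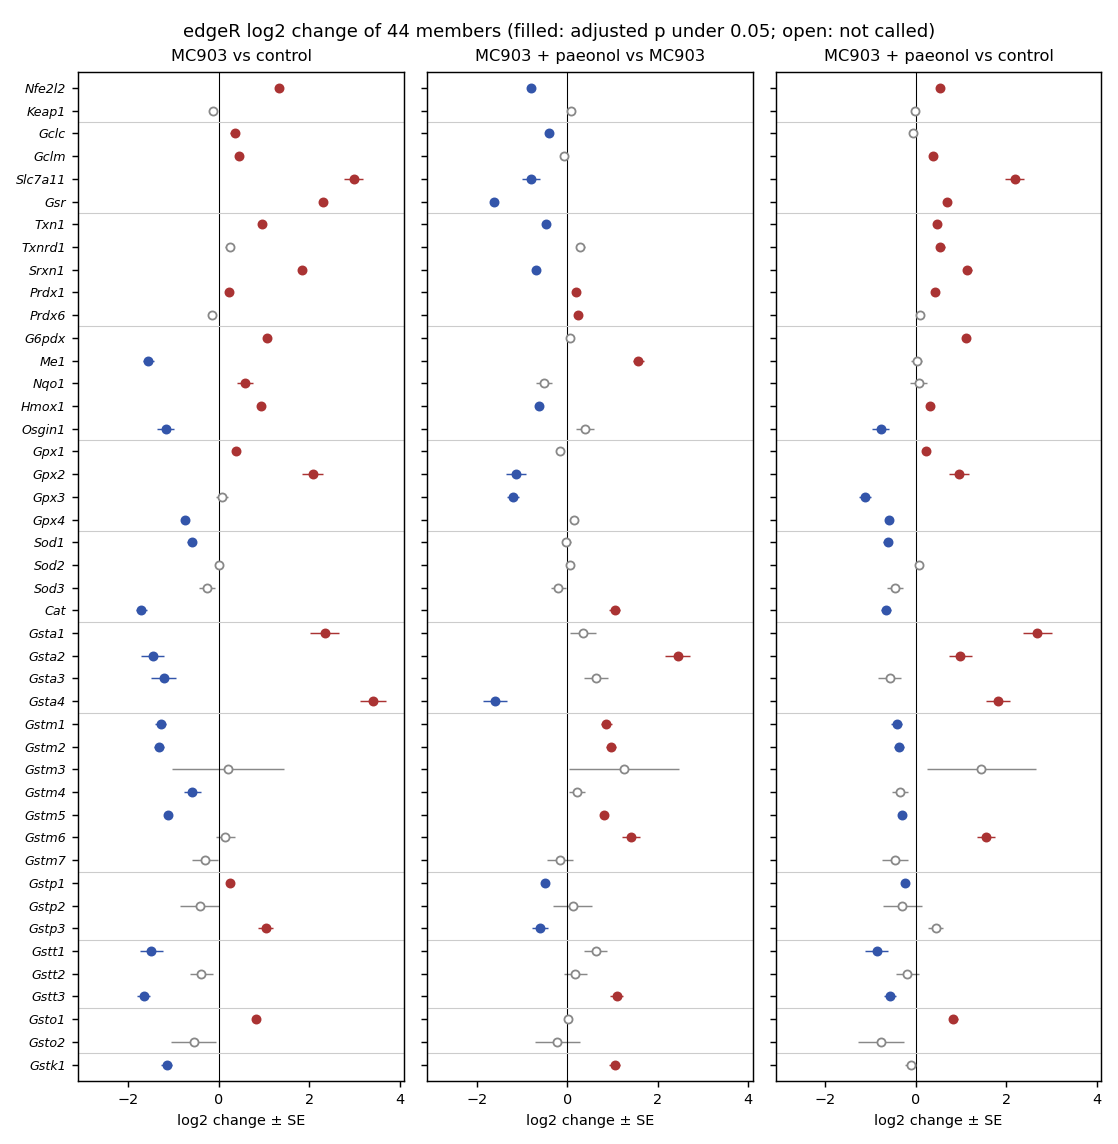
Log2 change (x axis, ± SE) of the 44 tested members (y axis, grouped by role) in MC903 against control ears (left), MC903-with-paeonol against MC903 ears (middle) and MC903-with-paeonol against control ears (right); filled points were called at an adjusted p under 0.05. In the left panel the changes run from -1.71 for Cat to 3.41 for Gsta4, and in the middle panel from -1.63 for Gsr to 2.44 for Gsta2.

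Nfe2l2 (GRCm38 chromosome 2, 75675513 to 75704641, minus strand) had 94.0, 99.9 and 116 CPM in MC903-with-paeonol ears, 186, 180.3 and 176 CPM in MC903 ears and 69.9, 73.8 and 70.6 CPM in control ears. The 3 groups did not overlap, and the MC903 libraries were the highest. Its log2 change was 1.34 ± 0.08 (adjusted p = 3.98e-07) in MC903 against control ears, -0.81 ± 0.07 (adjusted p = 2.26e-05) in MC903-with-paeonol against MC903 ears and 0.53 ± 0.07 (adjusted p = 0.000408) in MC903-with-paeonol against control ears. Keap1, its inhibitor (chromosome 9, 21229730 to 21239361), had 61.0, 58.8 and 55.8 CPM in MC903-with-paeonol ears, 53.7, 55.6 and 55.3 CPM in MC903 ears and 60.7, 57.7 and 60.5 CPM in control ears. The MC903 libraries were the lowest by a small margin and below all others, while the paeonol and control libraries overlapped. The gene was not called in any comparison. The log2 changes of Keap1 were -0.12 ± 0.06 (adjusted p = 0.126), 0.09 ± 0.06 (adjusted p = 0.286) and -0.03 ± 0.06 (adjusted p = 0.784) in the same order. Under scaling by library totals Keap1 was called lower in MC903 ears (-0.31, adjusted p = 0.0022) and in MC903-with-paeonol ears (-0.19, adjusted p = 0.0443), both against control ears.

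Genes that supply and recycle glutathione were higher in MC903 ears: all 4 of the group were called, with log2 changes from 0.35 to 2.99. Beside them, 23.0% of all genes tested were called higher, and 34.8% of those with a mean of at least 10 CPM. The call of Gclc ended under scaling by library totals (0.16, adjusted p = 0.158). Gsr, glutathione reductase, which returns oxidised glutathione to its reduced form with NADPH, had 42.8, 48.1 and 53.6 CPM in MC903-with-paeonol ears, 136, 148 and 162 CPM in MC903 ears and 31.0, 29.5 and 29.5 CPM in control ears. The libraries of each group formed a block of their own, and the MC903 block was far above the others. Gsr changed by 2.31 ± 0.09 (adjusted p = 8.12e-08) in MC903 against control ears, a 4.96-fold rise, and by -1.63 ± 0.09 (adjusted p = 1.35e-06) in MC903-with-paeonol against MC903 ears. It remained above control in MC903-with-paeonol ears, by 0.68 ± 0.09 (adjusted p = 0.000252).

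Slc7a11, the cystine-glutamate exchanger that brings in the cysteine for glutathione, had 26.7, 25.2 and 31.7 CPM in MC903-with-paeonol ears, 54.3, 46.2 and 45.2 CPM in MC903 ears and 4.15, 8.02 and 6.17 CPM in control ears. Again no groups overlapped, and on the log2 scale the level with paeonol was closer to MC903 than to control. The log2 change was 2.99 ± 0.21 (adjusted p = 3.47e-06) in MC903 against control ears, a 7.95-fold rise, and -0.80 ± 0.20 (adjusted p = 0.012) in MC903-with-paeonol against MC903 ears. That last call ended without MC903-with-paeonol library 1 (adjusted p = 0.0514) or 2 (0.0519).

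The rate-limiting step of glutathione synthesis, glutamate-cysteine ligase, moved much less. Gclc, its catalytic subunit, had 47.0, 47.4 and 45.5 CPM in MC903-with-paeonol ears, 66.7, 65.4 and 53.9 CPM in MC903 ears and 51.9, 44.4 and 49.3 CPM in control ears. The lowest MC903 library was just above the highest control library, and the paeonol libraries lay within the control range. Its log2 changes were 0.35 ± 0.09 (adjusted p = 0.0065) in MC903 against control ears, -0.41 ± 0.09 (adjusted p = 0.0048) in MC903-with-paeonol against MC903 ears and -0.06 ± 0.09 (adjusted p = 0.684) in MC903-with-paeonol against control ears. Gclm, its modifier subunit, had 45.3, 53.7 and 46.9 CPM in MC903-with-paeonol ears, 55.9, 51.2 and 45.9 CPM in MC903 ears and 35.2, 38.2 and 39.2 CPM in control ears. Libraries of both MC903-treated groups were above every control library and overlapped each other. Gclm changed by 0.44 ± 0.09 (adjusted p = 0.00202) in MC903 and by 0.37 ± 0.09 (adjusted p = 0.00964) in MC903-with-paeonol ears, each against control ears, and by -0.07 ± 0.09 (adjusted p = 0.636) between the treated groups. Its call against control in MC903-with-paeonol ears ended under scaling by library totals (0.21, adjusted p = 0.0974).

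In the thioredoxin and peroxiredoxin group, 3 of 5 members were higher in MC903 ears and none lower, beside 23.0% and 23.8% of all genes tested. Srxn1, sulfiredoxin, which repairs overoxidised peroxiredoxins, had 61.4, 69.4 and 75.3 CPM in MC903-with-paeonol ears, 112, 105 and 118 CPM in MC903 ears and 28.2, 33.2 and 32.2 CPM in control ears. Its groups did not overlap, and it changed by 1.84 ± 0.09 (adjusted p = 2.05e-07) in MC903 against control ears and by -0.70 ± 0.09 (adjusted p = 0.000158) in MC903-with-paeonol against MC903 ears. Txn1, thioredoxin, had 175, 176 and 186 CPM in MC903-with-paeonol ears, 237, 270.2 and 239 CPM in MC903 ears and 122, 140.2 and 125 CPM in control ears. Its groups did not overlap either, with log2 changes of 0.95 ± 0.07 (adjusted p = 1.96e-06) in MC903 against control ears and -0.47 ± 0.07 (adjusted p = 0.000573) in MC903-with-paeonol against MC903 ears. Against control, MC903-with-paeonol ears were higher in Srxn1 by 1.14 ± 0.09 and in Txn1 by 0.47 ± 0.07.

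Txnrd1, thioredoxin reductase, kept to another order. It had 175, 163 and 187 CPM in MC903-with-paeonol ears, 135, 127 and 167 CPM in MC903 ears and 131, 122 and 109 CPM in control ears. The MC903 libraries spread across the gap between the other groups, and the paeonol libraries were all above control. Its log2 change was 0.24 ± 0.10 (adjusted p = 0.0745) in MC903 against control ears, called only without MC903 library 2 (0.32, adjusted p = 0.0336), and 0.54 ± 0.10 (adjusted p = 0.00261) in MC903-with-paeonol against control ears. Between the treated groups it was 0.29 ± 0.10 (adjusted p = 0.0545), not called, and it was called without MC903 library 3 (0.42, adjusted p = 0.00793) and in DESeq2 (0.29, adjusted p = 0.034). The same held under scaling by library totals (0.32, adjusted p = 0.0379), with a minimum mean of 1 CPM (0.0487) and with counts divided by 4 (0.0477). Prdx1, an abundant peroxiredoxin, averaged 377 ± 14.7 CPM in MC903-with-paeonol ears, 329 ± 13.7 CPM in MC903 ears and 282 ± 6.46 CPM in control ears (SD, n = 3). It was called higher in all 3 comparisons, with log2 changes of 0.19 ± 0.06 between the treated groups, 0.22 ± 0.06 in MC903 and 0.42 ± 0.06 in MC903-with-paeonol against control. The change in MC903 against control ears was 0.03 (adjusted p = 0.684) under scaling by library totals. The change between treated groups lost its call without MC903 library 1 (adjusted p = 0.0699) or 3 (0.0874) or MC903-with-paeonol library 2 (0.0972). Prdx6, which reduces phospholipid hydroperoxides, changed by -0.14 ± 0.08 (adjusted p = 0.163) in MC903 against control ears and by 0.23 ± 0.08 (adjusted p = 0.0488) in MC903-with-paeonol against MC903 ears. The second of these was at the threshold and lost its call without any one of 7 of the 9 libraries, the highest adjusted p being 0.185 without MC903 library 3.

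**Figure D2:**
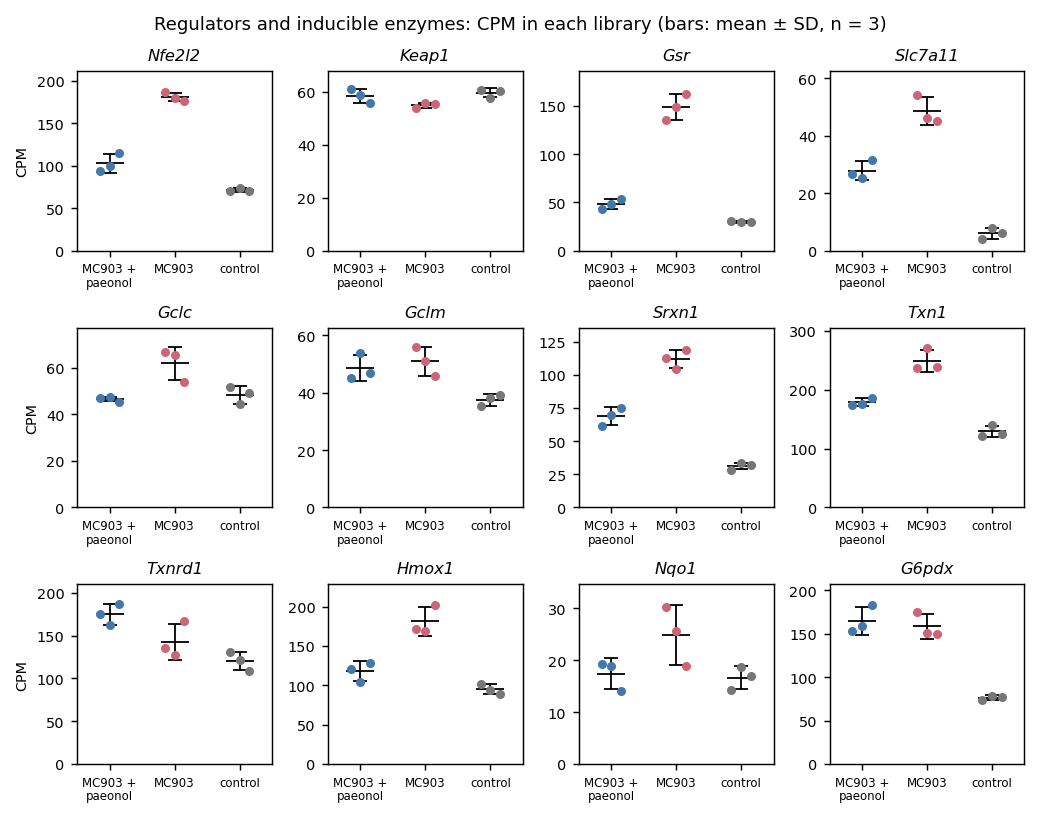
CPM (y axis, from 0) of 12 regulators and inducible enzymes in each library of MC903-with-paeonol, MC903 and control ears (x axis); points are libraries and bars the mean ± SD of 3. In Gsr the MC903 libraries lie at 136 to 162 CPM, above 42.8 to 53.6 CPM with paeonol and 29.5 to 31.0 CPM in control, while Keap1 stays between 53.7 and 61.0 CPM in all 9.

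Among the enzymes of NADPH supply, quinones and heme, all 5 were called in MC903 against control ears, 3 higher and 2 lower. The share of all genes tested called there was 46.8%, with 23.0% higher and 23.8% lower. Hmox1, the inducible heme oxygenase, had 121, 105 and 128 CPM in MC903-with-paeonol ears, 172, 169 and 202 CPM in MC903 ears and 101, 94.0 and 89.1 CPM in control ears. The 3 groups did not overlap, and the MC903 libraries were the highest. Hmox1 changed by 0.93 ± 0.09 (adjusted p = 1.08e-05) in MC903 against control ears and by -0.62 ± 0.09 (adjusted p = 0.000481) in MC903-with-paeonol against MC903 ears. Against control it was 0.32 ± 0.09 (adjusted p = 0.0223) in MC903-with-paeonol ears, a call that ended without control library 2 (adjusted p = 0.0636) or 3 (0.0887), without MC903-with-paeonol library 3 (0.0849) and under scaling by library totals (log2 change 0.15, adjusted p = 0.23). Hmox1 is also a gene of macrophages that clear heme. The summed level of 7 monocyte and macrophage markers was 471 to 766 CPM in MC903-with-paeonol ears, 1524 to 1713 CPM in MC903 ears and 895 to 969 CPM in control ears. All 7 markers were called higher in MC903 against control ears and lower in MC903-with-paeonol against MC903 ears, and their part in the Hmox1 result was not tested. All 4 tested neutrophil markers were called higher in MC903 against control ears (median log2 change 2.85). Between MC903-with-paeonol and MC903 ears 3 were lower and 1 higher (median -2.44). All 6 proliferation markers were called higher in MC903 and in MC903-with-paeonol ears, each against control (medians 0.9 and 1.0). What part neutrophils or dividing cells had in the change of any member was not tested.

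Nqo1, the quinone reductase often used as a readout of NRF2 activity, had 19.2, 19.0 and 14.0 CPM in MC903-with-paeonol ears, 30.2, 25.6 and 18.8 CPM in MC903 ears and 14.3, 18.7 and 16.9 CPM in control ears. The lowest MC903 library, replicate 3, was almost level with the highest control library. Its log2 change was 0.58 ± 0.18 (adjusted p = 0.022) in MC903 against control ears. The call ended under scaling by library totals (0.39, adjusted p = 0.108) and without control library 1 (adjusted p = 0.0816) or 3 (0.0552) or MC903 library 1 (0.0902) or 2 (0.0609). Between MC903-with-paeonol and MC903 ears Nqo1 changed by -0.52 ± 0.18 (adjusted p = 0.0542), just short of a call. It was called as lower in DESeq2 (-0.52, adjusted p = 0.0243), and in edgeR with a minimum mean of 1 CPM (adjusted p = 0.0466), with counts divided by 4 (0.0465) and without MC903 library 3 (-0.68, 0.0124).

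G6pdx, the entry enzyme of the pentose phosphate pathway and a main source of NADPH, had 153, 159 and 183 CPM in MC903-with-paeonol ears, 175, 151 and 149.6 CPM in MC903 ears and 73.2, 78.5 and 77.0 CPM in control ears. Both treated groups were at about the same level, well above control. It rose by 1.06 ± 0.08 (adjusted p = 2.23e-06) in MC903 and by 1.11 ± 0.08 (adjusted p = 1.53e-05) in MC903-with-paeonol ears against control, and the difference between the treated groups was 0.06 ± 0.08 (adjusted p = 0.667). Me1, cytosolic malic enzyme, which makes NADPH for fatty acid synthesis, had 167, 163 and 182 CPM in MC903-with-paeonol ears, 66.8, 60.2 and 45.4 CPM in MC903 ears and 170.4, 157 and 179 CPM in control ears. It fell in MC903 ears by 1.56 ± 0.12 (adjusted p = 3.71e-06) and was higher in MC903-with-paeonol than in MC903 ears by 1.57 ± 0.12 (adjusted p = 1.41e-05). The paeonol and control libraries overlapped, with a log2 change of 0.02 ± 0.12 (adjusted p = 0.941) between them. Of the 75-base windows of Me1 transcripts, 16.4% also occur in transcripts of other genes, so part of its counts may have been split. Osgin1, an oxidative stress-induced growth inhibitor, averaged 6.23 ± 1.19 CPM in MC903-with-paeonol ears, 4.77 ± 0.716 CPM in MC903 ears and 10.7 ± 1.62 CPM in control ears (SD, n = 3), and fell by 1.17 ± 0.19 in MC903 against control ears.

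Me1 is also a lipogenic gene, abundant in sebaceous and fat cells. The summed level of 9 sebaceous gland markers was 3161 to 4329 CPM in MC903-with-paeonol ears, 695 to 1441 CPM in MC903 ears and 5805 to 7674 CPM in control ears. Of these 9, 7 were called lower in MC903 against control ears and 6 higher in MC903-with-paeonol against MC903 ears. The 7 adipocyte markers summed to 159 to 191 CPM in MC903-with-paeonol ears, 155 to 194 CPM in MC903 ears and 282 to 374 CPM in control ears, and all 7 were called lower in MC903 against control ears. Although the sums of the treated groups overlapped, 4 adipocyte markers were called higher and 1 lower in MC903-with-paeonol against MC903 ears (median log2 change 0.48). All 7 skeletal muscle markers and all 5 tested cartilage markers were also called lower in MC903 against control ears. In MC903-with-paeonol against MC903 ears 2 muscle and 4 cartilage markers were called higher and none lower (median log2 changes 0.64 and 0.86). The part of these cell types in the change of Me1, and in those of Cat and of the mu, theta and kappa transferases below, was not tested.

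The core of the antioxidant response element, TGACNNNGC, was looked for on both strands of the promoter windows of RefSeq (GRCm38.p6), each covering 250 bases before to 50 after a transcript start. Windows were found for 38 of the 45 members, not for Gclc, Gsr, Gsta4, Gstt2, Hmox1, Prdx6 and Sod3. A match lay in a window of 11 of the 38 members, and in 14.0% of all 27025 symbols (12.4% of 32851 windows). The stretches below show 6 of these matches on the gene's strand, 5′ to 3′, with the matched bases in capitals, so that the flanks can be compared. They are from members that rose, fell or were not called in MC903 ears.

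Prdx1: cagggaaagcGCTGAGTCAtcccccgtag
Me1: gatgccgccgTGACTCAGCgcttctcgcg
G6pdx: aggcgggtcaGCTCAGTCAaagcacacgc
Txnrd1: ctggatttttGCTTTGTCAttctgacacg
Gclm: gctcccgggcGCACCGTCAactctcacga
Nfe2l2: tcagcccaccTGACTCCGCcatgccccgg

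The matches in Prdx1 (chr4:116685456-116685484, plus strand) and Me1 (chr9:86695902-86695930, minus strand) hold the same 9 letters, TGACTCAGC, read on opposite strands of their genes. In both the match overlaps the letters TGANTCA, the AP-1 motif, which occurred in 7 of the 38 members and in 8.97% of all symbols. These genes moved differently: Prdx1 was called higher by 0.22 ± 0.06 and Me1 lower, with a log2 change of -1.56 ± 0.12, in MC903 against control ears. The other window of Me1 (chr9:86687228-86687527) held no match. The matches in G6pdx (chrX:74428919-74428947, minus strand), Txnrd1 (chr10:82859104-82859132, plus strand, 1 of 3 start sites), Gclm (chr3:122245413-122245441, plus strand) and Nfe2l2 (chr2:75704885-75704913, minus strand) carry other letters in the open positions. The remaining matches were in Gsta3, Gstm5, Gstm7, Sod1 and Srxn1. In MC903 against control ears Gsta3, Gstm5 and Sod1 were called lower, Srxn1 was called higher and Gstm7 was not called. A match is a description of these letters in the window and shows no binding. A window without a match does not show that the gene lacks such an element outside the 300 bases searched.

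The glutathione peroxidases, which remove hydrogen and lipid peroxides with glutathione, went in different directions. Gpx2, an epithelial peroxidase and a known NRF2 target, had 5.40, 5.99 and 5.58 CPM in MC903-with-paeonol ears, 11.0, 15.4 and 11.0 CPM in MC903 ears and 2.05, 3.05 and 3.72 CPM in control ears. Its groups did not overlap, and it changed by 2.08 ± 0.23 (adjusted p = 1.95e-05) in MC903 against control ears and by -1.14 ± 0.22 (adjusted p = 0.0023) in MC903-with-paeonol against MC903 ears. Gpx3, the secreted peroxidase of plasma, had 37.1, 47.3 and 40.9 CPM in MC903-with-paeonol ears, 82.6, 96.5 and 108 CPM in MC903 ears and 77.2, 103 and 92.2 CPM in control ears. MC903 and control libraries overlapped and the paeonol libraries were all lower, with log2 changes of 0.08 ± 0.13 (adjusted p = 0.67) in MC903 against control ears and -1.20 ± 0.13 (adjusted p = 0.000115) in MC903-with-paeonol against MC903 ears.

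Gpx4, which reduces phospholipid hydroperoxides and restrains ferroptosis, had 138, 117 and 124 CPM in MC903-with-paeonol ears, 117, 122 and 105 CPM in MC903 ears and 176, 196 and 203 CPM in control ears. Both treated groups were below every control library and overlapped each other. It changed by -0.74 ± 0.08 (adjusted p = 2.49e-05) in MC903 and by -0.60 ± 0.08 (adjusted p = 0.000347) in MC903-with-paeonol ears against control. Of the 75-base windows of Gpx4 transcripts, 29.8% also occur in transcripts of other genes, among them a processed copy, so part of its counts may have been split. Gpx1, the ubiquitous cytosolic peroxidase, averaged 240 ± 14.5 CPM in MC903-with-paeonol ears, 269.6 ± 19.0 CPM in MC903 ears and 206 ± 16.9 CPM in control ears (SD, n = 3). It rose by 0.39 ± 0.08 (adjusted p = 0.00148) in MC903 against control ears, a call that ended under scaling by library totals (0.20, adjusted p = 0.0571).

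Of 4 superoxide dismutases and catalase, none was higher in MC903 than in control ears and 2 were lower. Beside this, 23.0% of all genes tested were higher and 23.8% lower there. Cat, the peroxisomal catalase, had 90.0, 76.2 and 84.5 CPM in MC903-with-paeonol ears, 44.4, 45.0 and 31.8 CPM in MC903 ears and 135, 131 and 130.4 CPM in control ears. The groups did not overlap, and Cat changed by -1.71 ± 0.12 (adjusted p = 1.64e-06) in MC903 against control ears, by 1.05 ± 0.12 (adjusted p = 0.000104) in MC903-with-paeonol against MC903 ears and by -0.66 ± 0.12 (adjusted p = 0.00176) in MC903-with-paeonol against control ears. Sod1, the cytosolic copper-zinc enzyme, had 78.2, 60.0 and 62.7 CPM in MC903-with-paeonol ears, 65.8, 72.5 and 65.4 CPM in MC903 ears and 95.2, 105 and 108 CPM in control ears. The treated groups overlapped each other and lay below control, with log2 changes of -0.60 ± 0.10 (adjusted p = 0.000362) in MC903 and -0.62 ± 0.10 (adjusted p = 0.000726) in MC903-with-paeonol against control ears. Red blood cells are rich in catalase and superoxide dismutase. The summed level of 5 of their markers was 3.26 to 7.32 CPM in MC903-with-paeonol ears, 21.1 to 41.8 CPM in MC903 ears and 67.6 to 130.3 CPM in control ears, and their part in these results was not tested.

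Sod2, the mitochondrial manganese enzyme, had 96.1, 101 and 106 CPM in MC903-with-paeonol ears, 87.4, 103 and 102 CPM in MC903 ears and 92.1, 105 and 93.2 CPM in control ears. The 3 groups overlapped, and its log2 changes were 0.01 ± 0.08 (adjusted p = 0.954) in MC903 against control ears and 0.05 ± 0.08 (adjusted p = 0.692) in MC903-with-paeonol against MC903 ears. Other genes share 16.2% of the 75-base windows of Sod2 transcripts. Sod3, the extracellular enzyme, had 56.6, 55.4 and 35.2 CPM in MC903-with-paeonol ears, 47.8, 64.8 and 56.6 CPM in MC903 ears and 68.5, 69.4 and 64.3 CPM in control ears. MC903-with-paeonol library 3 was the lowest of all, and every paeonol library was below every control library. Sod3 was not called in any comparison. Its log2 change was -0.26 ± 0.17 (adjusted p = 0.267) in MC903 against control ears, called only without MC903-with-paeonol library 3 (adjusted p = 0.0491). It was -0.46 ± 0.17 (adjusted p = 0.0798) in MC903-with-paeonol against control ears, where 2 alternatives called it, DESeq2 (-0.45, adjusted p = 0.0256) and library totals (-0.62, adjusted p = 0.0342).

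**Figure D3:**
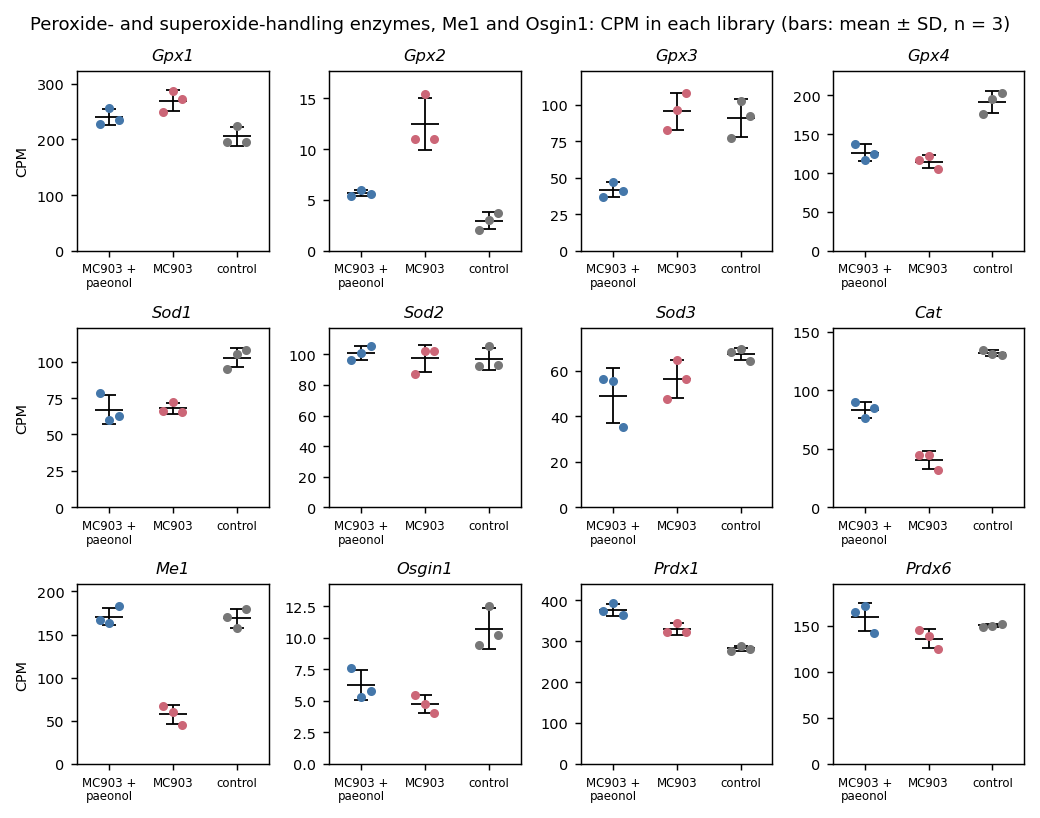
CPM (y axis, from 0) of the peroxidases, superoxide dismutases, catalase, malic enzyme, Osgin1 and peroxiredoxins in each library of MC903-with-paeonol, MC903 and control ears (x axis); points are libraries and bars the mean ± SD of 3. Cat lies at 31.8 to 45.0 CPM in MC903 ears, below 76.2 to 90.0 CPM with paeonol and 130.4 to 135 CPM in control, while the Sod2 groups overlap.

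Of 20 glutathione transferases tested, 5 were higher (25.0%) and 9 lower (45.0%) in MC903 against control ears, with a median log2 change of -0.48. Among all genes tested 23.0% were higher and 23.8% lower there, so the higher share was near that of all genes. In MC903-with-paeonol against MC903 ears 7 were higher (35.0%) and 3 lower (15.0%), with a median of 0.48. Beside 15.3% and 14.3% of all genes tested, the lower share was near that of all genes. The 5 higher ones were in the alpha, pi and omega classes, and the 9 lower ones in the alpha, mu, theta and kappa classes. With libraries scaled by totals, Gstp1 was no longer among the higher ones (0.06, adjusted p = 0.515).

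Alpha class genes differed most from each other. Gsta4 (chromosome 9, 78182774 to 78209349, plus strand), whose enzyme conjugates the lipid peroxidation product hydroxynonenal, had 49.2, 61.0 and 70.7 CPM in MC903-with-paeonol ears, 204, 214 and 130.5 CPM in MC903 ears and 12.4, 19.6 and 19.6 CPM in control ears. Replicate 3 was the lowest of the MC903 libraries and still above every library of the other groups. Gsta4 changed by 3.41 ± 0.28 (adjusted p = 3.46e-05) in MC903 against control ears, a 10.7-fold rise, by -1.60 ± 0.26 (adjusted p = 0.00262) in MC903-with-paeonol against MC903 ears and by 1.81 ± 0.26 (adjusted p = 0.00174) in MC903-with-paeonol against control ears. No 75-base window of its transcripts occurs in those of another gene.

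Gsta1 and Gsta2, neighbours of Gsta4 on chromosome 9, share sequence: 84.7% of the windows of Gsta1 and 36.6% of those of Gsta2 occur in transcripts of other genes, among them each other. No source used here gives how counts were divided between them, so both sets of values are uncertain. Gsta1 had 19.6, 19.4 and 15.6 CPM in MC903-with-paeonol ears, 21.3, 12.8 and 8.99 CPM in MC903 ears and 3.67, 2.15 and 2.70 CPM in control ears. Both treated groups were above control and overlapped each other, with log2 changes of 2.34 ± 0.32 (adjusted p = 0.000215) in MC903 and 2.68 ± 0.32 (adjusted p = 0.000305) in MC903-with-paeonol against control ears. Between the treated groups the change was 0.34 ± 0.29 (adjusted p = 0.441), called only without MC903 library 1 (0.74, adjusted p = 0.0409). Gsta2 had 16.7, 18.8 and 14.6 CPM in MC903-with-paeonol ears, 4.42, 3.05 and 1.76 CPM in MC903 ears and 9.15, 8.10 and 8.18 CPM in control ears. Here MC903 libraries were the lowest and paeonol libraries the highest, with no overlap. Gsta2 changed by -1.46 ± 0.26 (adjusted p = 0.000863) in MC903 against control ears and by 2.44 ± 0.27 (adjusted p = 8.43e-05) in MC903-with-paeonol against MC903 ears, a 5.43-fold difference. Gsta3, on chromosome 1, averaged 7.80 ± 1.77 CPM in MC903-with-paeonol ears, 5.02 ± 1.77 CPM in MC903 ears and 11.7 ± 2.19 CPM in control ears (SD, n = 3), and fell by 1.22 ± 0.27 (adjusted p = 0.00287) in MC903 against control ears.

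The mu class lies in 1 cluster on chromosome 3 (from 107895821, the start of Gstm5, to 108044894, the end of Gstm4). Of its 7 members, 4 were lower and none higher in MC903 against control ears. Beside this, 23.8% of all genes tested were lower and 23.0% higher there. In MC903-with-paeonol against MC903 ears 4 were higher and none lower, beside 15.3% and 14.3% of all genes tested. Gstm2 had 62.2, 47.8 and 45.2 CPM in MC903-with-paeonol ears, 28.5, 26.0 and 25.3 CPM in MC903 ears and 67.3, 62.2 and 71.6 CPM in control ears. The MC903 libraries were the lowest by a wide margin, and the highest paeonol library was just under the lowest control library. Gstm2 changed by -1.33 ± 0.11 (adjusted p = 3.82e-06) in MC903 against control ears and by 0.96 ± 0.11 (adjusted p = 0.000107) in MC903-with-paeonol against MC903 ears. Gstm5 had 40.8, 33.6 and 38.1 CPM in MC903-with-paeonol ears, 21.9, 21.1 and 20.8 CPM in MC903 ears and 45.1, 49.3 and 45.2 CPM in control ears. Its groups did not overlap, and its log2 changes were -1.13 ± 0.09 (adjusted p = 1.66e-06) in MC903 against control ears and 0.82 ± 0.08 (adjusted p = 4.42e-05) in MC903-with-paeonol against MC903 ears.

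Gstm1, the most abundant mu transferase, averaged 86.5 ± 14.2 CPM in MC903-with-paeonol ears, 47.7 ± 5.51 CPM in MC903 ears and 116 ± 7.24 CPM in control ears (SD, n = 3). It changed by -1.28 ± 0.12 in MC903 against control ears and by 0.86 ± 0.12 in MC903-with-paeonol against MC903 ears. Gstm1, Gstm2 and Gstm5 were still lower in MC903-with-paeonol than in control ears, with log2 changes of -0.42, -0.37 and -0.31. That call of Gstm1 ended without control library 1 (adjusted p = 0.076) or 3 (0.0565) or MC903-with-paeonol library 3 (0.0538). For Gstm2 it ended without control library 1 (adjusted p = 0.0606) or 3 (0.0951) or MC903-with-paeonol library 2 (0.1) or 3 (0.0943), and for Gstm5 without control library 2 (0.0651) or MC903-with-paeonol library 2 (0.0642). Gstm4 fell by 0.58 ± 0.18 (adjusted p = 0.019) in MC903 against control ears, a call that ended without control library 1 (adjusted p = 0.0604) or MC903 library 3 (0.0661). Gstm6 had another pattern: 8.30, 9.98 and 8.28 CPM in MC903-with-paeonol ears, 2.86, 3.62 and 3.52 CPM in MC903 ears and 2.53, 2.79 and 3.70 CPM in control ears. MC903 and control overlapped, and the paeonol libraries were all above them, with a log2 change of 1.41 ± 0.20 (adjusted p = 0.000312) against MC903 ears and 1.56 ± 0.20 (adjusted p = 0.000211) against control ears. Gstm7 was not called in any comparison, and Gstm3 had 0 to 20 estimated counts per library, too few for a fold.

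In the pi class, Gstp1 (chromosome 19), the main transferase of many epithelia, had 66.7, 68.2 and 62.0 CPM in MC903-with-paeonol ears, 96.3, 93.0 and 88.2 CPM in MC903 ears and 71.0, 81.0 and 80.6 CPM in control ears. Its MC903 libraries were above both other groups, and the paeonol libraries below them. The log2 changes were small, 0.25 ± 0.07 (adjusted p = 0.0109) in MC903 against control ears and -0.49 ± 0.07 (adjusted p = 0.000352) in MC903-with-paeonol against MC903 ears. Gstp3 had 4.34, 6.33 and 5.94 CPM in MC903-with-paeonol ears, 8.57, 8.35 and 8.31 CPM in MC903 ears and 4.001, 4.17 and 4.11 CPM in control ears. The groups did not overlap, and Gstp3 rose by 1.04 ± 0.17 (adjusted p = 0.000352) in MC903 against control ears and changed by -0.60 ± 0.17 (adjusted p = 0.0177) in MC903-with-paeonol against MC903 ears, a call that ended without MC903-with-paeonol library 1 (-0.45, adjusted p = 0.0627). Gstp2, which shares 50.1% of its windows with other genes, mainly Gstp1, ranged from 3.62 to 12.7 CPM within the MC903 group alone and was not called. Gstp1 shares 29.2% of its windows, so reads may have been divided between these genes.

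Of 3 tested theta transferases 2 were lower in MC903 than in control ears, and so was the kappa transferase. The share of all genes tested that were lower there was 23.8%. Gstt3 (chromosome 10) had 23.3, 21.1 and 18.1 CPM in MC903-with-paeonol ears, 9.83, 11.6 and 8.02 CPM in MC903 ears and 33.3, 29.6 and 29.9 CPM in control ears. No groups overlapped, and its log2 changes were -1.66 ± 0.14 (adjusted p = 3.64e-06) in MC903 against control ears and 1.09 ± 0.14 (adjusted p = 0.000182) in MC903-with-paeonol against MC903 ears. Its exons overlap those of Gm20441 on the same strand, so its counts are uncertain. Gstt1 had 6.73, 7.14 and 3.37 CPM in MC903-with-paeonol ears, 3.82, 3.40 and 3.96 CPM in MC903 ears and 11.2, 11.5 and 8.79 CPM in control ears. MC903-with-paeonol library 3 lay below every MC903 library and the other paeonol libraries above them all. Gstt1 fell by 1.49 ± 0.25 (adjusted p = 0.000494) in MC903 against control ears, and its change between the treated groups was 0.63 ± 0.25 (adjusted p = 0.0851), called only without that library (0.90, adjusted p = 0.00326).

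Gstt2 was not called in any comparison. Gstk1, the mitochondrial and peroxisomal transferase (chromosome 6), had 15.9, 19.0 and 15.0 CPM in MC903-with-paeonol ears, 8.89, 7.87 and 7.41 CPM in MC903 ears and 17.1, 17.4 and 19.2 CPM in control ears. The MC903 libraries were below all others, while the paeonol and control libraries overlapped. Gstk1 fell by 1.15 ± 0.12 (adjusted p = 1.94e-05) in MC903 against control ears, was higher by 1.05 ± 0.12 (adjusted p = 0.00011) in MC903-with-paeonol than in MC903 ears and differed from control by -0.11 ± 0.12 (adjusted p = 0.568). The omega class member Gsto1 (chromosome 19), which reduces dehydroascorbate and thiols, had 159.7, 179.5 and 156 CPM in MC903-with-paeonol ears, 183, 169 and 142 CPM in MC903 ears and 93.1, 90.8 and 95.3 CPM in control ears. The treated groups overlapped each other and both lay above control. Gsto1 rose by 0.82 ± 0.09 (adjusted p = 2.12e-05) in MC903 and by 0.83 ± 0.09 (adjusted p = 9.7e-05) in MC903-with-paeonol ears against control, with 0.01 ± 0.09 between the treated groups. Gsto2 stayed under 1 CPM in all libraries and was not called, with -0.55 ± 0.50 (adjusted p = 0.397) in MC903 against control ears.

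**Figure D4:**
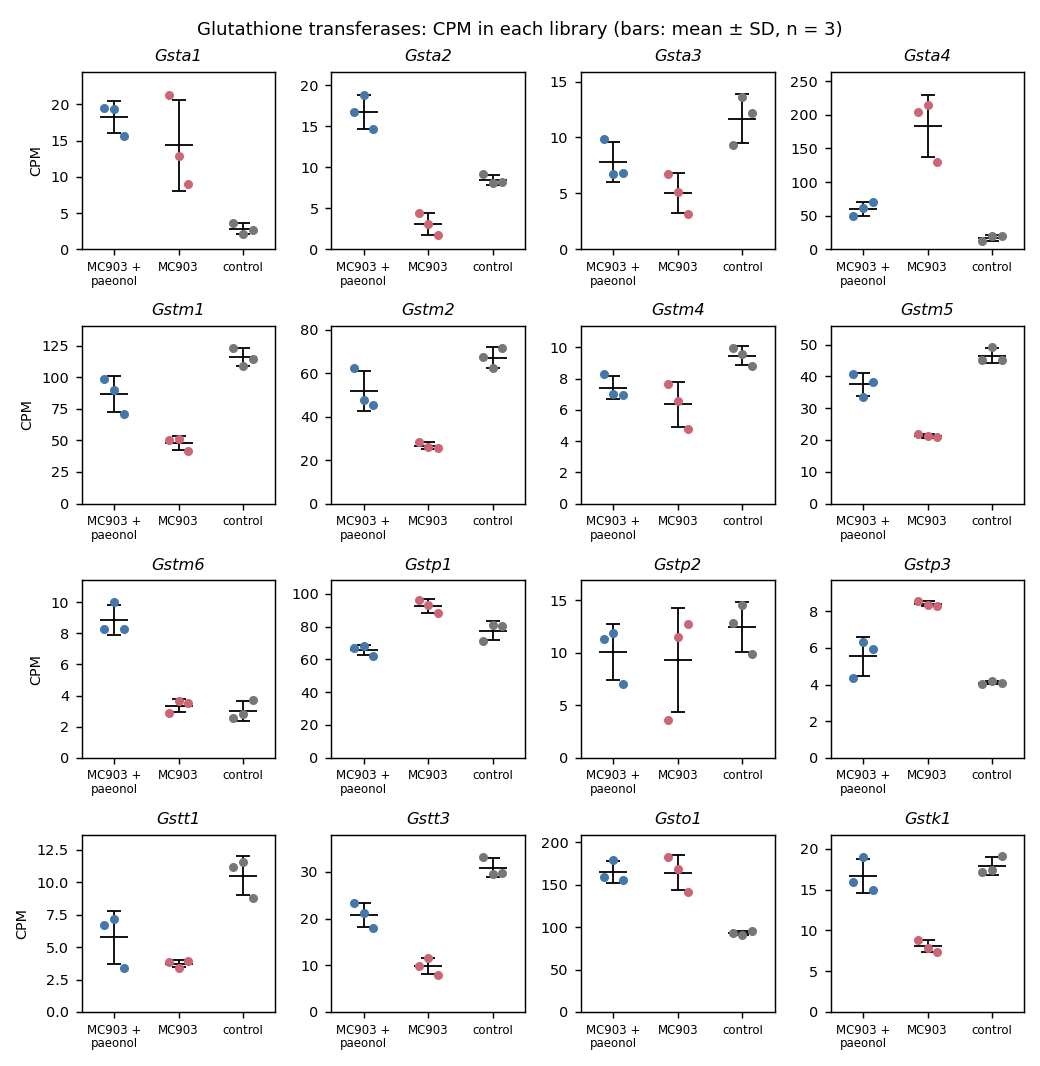
CPM (y axis, from 0) of 16 glutathione transferases in each library of MC903-with-paeonol, MC903 and control ears (x axis); points are libraries and bars the mean ± SD of 3. Gsta4 lies at 130.5 to 214 CPM in MC903 ears, above 49.2 to 70.7 CPM with paeonol and 12.4 to 19.6 CPM in control, and Gstm5 at 20.8 to 21.9 CPM in MC903 ears, below both other groups.

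Divided by exon length, levels can be set between genes. In CPM per kilobase of annotated exon, the highest transferase in MC903-with-paeonol ears was Gsto1 (81.6 ± 6.21, SD, n = 3), followed by Gstm1 (58.7 ± 9.66), Gsta4 (47.6 ± 8.47) and Gstp1 (42.4 ± 2.08). There the ranges of mean ± SD overlapped between Gstm1 and Gsta4 and between Gsta4 and Gstp1. In MC903 ears Gsta4 led, with 145 ± 36.2 CPM per kilobase, followed by Gsto1 (81.3 ± 10.3), Gstp1 (59.8 ± 2.63) and Gstm1 (32.4 ± 3.74), and no neighbours among these overlapped in mean ± SD. In control ears the order was Gstm1 (78.6 ± 4.91), Gstp1 (50.1 ± 3.67), Gsto1 (46.0 ± 1.11) and Gstm2 (39.9 ± 2.80), and Gsta4 was sixth with 13.6 ± 3.27 CPM per kilobase. Gstp1 and Gsto1 overlapped in mean ± SD there. So the transferase with the highest level per length was a different gene in each of the 3 groups. These levels depend on the exon length taken for each gene and, for Gstp1 and Gstm1, on reads shared with other genes.

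Summed by class, in plain CPM, the alpha transferases reached 95.3 to 108 CPM in MC903-with-paeonol ears, 144 to 237 CPM in MC903 ears and 34.5 to 43.4 CPM in control ears. The mu transferases summed to 172 to 220.2 CPM in MC903-with-paeonol ears, 97.6 to 113 CPM in MC903 ears and 236 to 251 CPM in control ears. Over all 21 transferases the sum was 551 to 613 CPM in MC903-with-paeonol ears, 518 to 667 CPM in MC903 ears and 533 to 542 CPM in control ears. The total of the treated groups overlapped, and the MC903 range took in the control range, while the alpha and mu sums did not overlap between groups.

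A list of 48 other genes of glutathione, thioredoxin, heme and NRF2 biology, none of them members, was counted in the same fit. Like the members, it was chosen with earlier results of these data known. In MC903 against control ears 17 of 48 were higher and 13 lower, in MC903-with-paeonol against MC903 ears 17 higher and 12 lower, and in MC903-with-paeonol against control ears 18 higher and 11 lower. These are 35.4% higher and 27.1% lower in MC903 against control ears, beside 23.0% and 23.8% of all genes tested. In MC903-with-paeonol against MC903 ears they are 35.4% and 25.0%, beside 15.3% and 14.3%, and in MC903-with-paeonol against control ears 37.5% and 22.9%, beside 16.3% and 14.5%. Most of the 48 had a mean above 10 CPM, so genes at that level are the closer background. At that level 34.8% of all genes were higher and 28.7% lower in MC903 against control ears, near the shares of the list. In MC903-with-paeonol ears the shares at that level were 22.6% and 21.2% against MC903 ears and 27.9% and 19.3% against control ears. Akr1b8, an aldo-keto reductase, had 21.4, 25.4 and 22.0 CPM in MC903-with-paeonol ears, 40.9, 45.9 and 43.5 CPM in MC903 ears and 15.4, 17.9 and 17.6 CPM in control ears. Its groups did not overlap, and it changed by 1.36 ± 0.10 (adjusted p = 1.28e-06) in MC903 against control ears and by -0.92 ± 0.10 (adjusted p = 4.7e-05) in MC903-with-paeonol against MC903 ears. Gstz1, the zeta class transferase of tyrosine breakdown, had 37.3, 39.9 and 34.9 CPM in MC903-with-paeonol ears, 28.3, 28.6 and 24.8 CPM in MC903 ears and 52.9, 64.9 and 63.9 CPM in control ears. It fell by 1.15 ± 0.10 (adjusted p = 3.41e-06) in MC903 against control ears and lay higher by 0.46 ± 0.10 in MC903-with-paeonol than in MC903 ears. Prdx5, a peroxiredoxin of mitochondria and peroxisomes, had 316, 325 and 314 CPM in MC903-with-paeonol ears, 199, 183 and 168 CPM in MC903 ears and 219, 185 and 186 CPM in control ears. Only the paeonol libraries stood apart, with 0.80 ± 0.08 (adjusted p = 4.04e-05) against MC903 ears and 0.70 ± 0.08 (adjusted p = 0.000135) against control ears.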

How the data were processed

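Messenger RNA of ears was measured in 9 libraries. Per the labels' protocols, RNA was extracted with Trizol, selected with oligo(dT) and made into libraries with a U-marked second strand. The tools named are StringTie 1.3.4d, HISAT2 2.0.4 and cutadapt, with the build GRCm38, per the submitters' processing notes. What each did, and how strand and annotation were set, is not given here. If counting ignored the strand, counts of Keap1, Gclm, G6pdx, Me1 and Gstm5 may hold reads of genes overlapping them on the other strand.

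The values deposited by the authors are whole numbers, taken as estimated counts with no scaling. Multiples of 4 are over-represented among the lowest of them, with 4 itself found 1.90 to 2.23 times as often as the values beside it. Groups and replicate numbers were read from the sample titles, and columns were joined by library name; no value column was unused. Symbols, coordinates and exon lengths came from GENCODE M21 (GRCm38), which matched 55141 of 55401 features.

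edgeR 4.0.16 (R 4.3.3) was run on all libraries with filterByExpr (minimum count 10, minimum total 15), TMM factors of 0.942 to 1.09, 1 coefficient per group and a robust quasi-likelihood F test, two-sided. Standard errors were approximated from the log2 change and its F value. Counts outside the tested genes were 0.04% of the total. On data simulated from these libraries for MC903 against control (21925 genes), 67, 67 and 66 genes were changed 1.5-fold, 2-fold and 4-fold. The changed genes had a mean of at least 1 CPM. Of these, 43.3%, 80.6% and 93.9% were recovered, and 0.0522% of unchanged genes were called. Far more genes, 46.8%, were called in the real comparison, so these rates do not carry over to it. Within groups, libraries differed beyond sampling noise (chi-square over its degrees of freedom 7.03 to 15.8, with counts divided by 4).

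Members, role groups and lists were chosen with earlier results of these data known. Named in full are 10 pathway genes (Nfe2l2, Keap1, Hmox1, Nqo1, Gclc, Gclm, Txnrd1, Srxn1, Slc7a11 and Gsr) and, in each role group, the 2 members with the smallest p in MC903 against control and in MC903-with-paeonol against MC903. Members outside this rule were described after their values were seen, as was the level of 10 CPM used for a second background. Sequence sharing was counted over all 75-base windows of annotated transcripts. The alternatives tried were DESeq2 1.42.0, edgeR with the DESeq2 size factors, library totals, no filter, a mean of 1 CPM, fits of 2 groups, counts divided by 4, the replicate number as a block and each library left out.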

Additional observations from a re-analysis of the deposited data

How the results depend on the processing

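Under all 17 alternatives the counts of members called in each direction, and of all genes called in either direction, stayed in each comparison within 1.5 times the reported ones. With 1 library left out, members called in MC903 against control ears numbered 17 to 18 higher and 13 to 15 lower, in MC903-with-paeonol against MC903 ears 9 to 12 and 10 to 13, and in MC903-with-paeonol against control ears 15 to 18 and 8 to 11. All genes called ranged from 9012 to 10376, from 5065 to 6328 and from 5216 to 6710 in the same order. No called member changed its direction under any alternative. Of members not called, the sign turned under library totals for Gpx3 (-0.11), Sod2 (-0.18) and Gstm6 (-0.04) in MC903 against control ears, for Sod1 (0.01) in MC903-with-paeonol against MC903 ears, and for Prdx6 (-0.08), Me1 (-0.15), Nqo1 (-0.10) and Sod2 (-0.11) in MC903-with-paeonol against control ears. With 1 library left out it turned for Gpx3 (-0.03 to 0.18), Sod2 (-0.03 to 0.08) and Gstm3 (-0.42 to 0.78) in MC903 against control ears; for Gclm (-0.15 to 0.0), G6pdx (-0.02 to 0.13), Sod1 (-0.14 to 0.05), Sod2 (-0.02 to 0.09), Gstm7 (-0.37 to 0.01), Gstp2 (-0.26 to 0.41), Gstt2 (-0.08 to 0.40) and Gsto1 (-0.09 to 0.09) in MC903-with-paeonol against MC903 ears; and for Keap1 (-0.05 to 0.01), Me1 (-0.03 to 0.06) and Nqo1 (-0.03 to 0.20) in MC903-with-paeonol against control ears. The cause of these turns was not tested. Same-numbered libraries of different groups did not deviate together (correlations from -0.0113 to 0.04 over 9 pairs). No sign of pairing by number was seen, but such correlations cannot exclude a pairing. With the replicate number as a block, members called were 18 higher and 14 lower in MC903 against control ears, 11 and 14 in MC903-with-paeonol against MC903 ears, and 17 and 11 in MC903-with-paeonol against control ears. The calls gained with the block were those of Nqo1 (adjusted p = 0.036) and Gpx1 (0.0461), both lower in MC903-with-paeonol against MC903 ears. Depth limits Gstt4, Gstm3 and Gsto2, whose counts reach at most 16, 20 and 51 per library.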
